A study of Mus musculus with 8 samples.

Results

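The Kruppel-like factors (Klfs) examined here are 9 genes, Klf3, Klf4, Klf5, Klf6, Klf7, Klf9, Klf10, Klf13 and Klf15, found by their symbols among the 25485 genes of the normalised table and joined by Ensembl identifier to the 53801 genes of the count table. They were followed in RNA from sorted intestinal stem cells of 8 mice, 1 library per mouse. All mice carried the gain-of-function allele of β-catenin (β-catGOF) and Lgr5-EGFP-IRES-CreERT2, which drives both GFP and the tamoxifen-dependent Cre recombinase from the Lgr5 locus, so that recombination was directed to Lgr5+ crypt stem cells. The 4 test mice were labelled Mll1-/- and the 4 controls Mll1+/-, which leaves 1 allele of the histone methyltransferase gene Mll1 (Kmt2a) in the controls. Mutagenesis was induced at an age of 4 to 6 weeks with tamoxifen at 50 mg/kg on 3 days, and EpCAM+, CD45-, Lgr5-GFP+ cells were collected 10 days after induction. No library without β-catGOF was analysed, so every difference is one between Mll1 genotypes in mice carrying β-catGOF. GFP marks Lgr5 expression with or without recombination, and the share of sorted cells that had recombined is not known from these counts.

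Klfs are transcription factors that bind GC-rich and CACCC-type DNA through zinc fingers at the end of the protein, and that differ in the activating or repressing partners of the rest of the molecule. In the intestinal epithelium, Klf5 is known from proliferating crypt cells, while Klf4 is known from differentiating cells, where it restrains the cell cycle and takes part in goblet cell maturation. Klf6 and Klf10 are induced rapidly by growth factors and stress, Klf10 also by TGF-β, and Klf9, Klf13 and Klf15 have been linked to glucocorticoid signalling and the circadian clock.

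Klf4 and Klf7 had the largest genotype differences among the members, and the stretches upstream of their starts are shown because factors of this family bind such GC-rich elements. Capitals mark GGGCGG or CACCC on either strand, and bases inside annotated exons of the gene were left off. The sequences are from RefSeq (GRCm38.p6). The Klf4 stretch covers chr4:55532467-55532725 on the minus strand, just upstream of the gene, and the Klf7 stretch chr1:64121492-64121639 on the minus strand, upstream of the main first exon and within an intron of a longer transcript.
Klf4: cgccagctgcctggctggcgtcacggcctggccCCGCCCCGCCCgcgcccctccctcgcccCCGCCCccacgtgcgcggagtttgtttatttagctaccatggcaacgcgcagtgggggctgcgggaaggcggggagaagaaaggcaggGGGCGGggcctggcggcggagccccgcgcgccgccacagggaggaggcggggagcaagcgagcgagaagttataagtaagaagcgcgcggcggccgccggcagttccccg
Klf7: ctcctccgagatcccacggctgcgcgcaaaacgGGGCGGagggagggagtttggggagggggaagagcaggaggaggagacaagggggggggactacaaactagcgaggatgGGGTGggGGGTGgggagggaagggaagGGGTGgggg
The Klf4 stretch held 4 GGGCGG and 0 CACCC matches, some of them overlapping, and the Klf7 stretch held 1 GGGCGG and 3 CACCC matches. In the full windows of 300 bases, GGGCGG occurred in 6 of the 7 members matched in the promoter table and CACCC in 5, against 35.7% and 57.5% of all 32851 promoters. The median GC content of all promoters was 52.7%. All 7 member windows lay above it, from 58.3% for Klf7 to 76.7% for Klf3, with Klf4 at 74.3%. The shares of promoters with a match were not compared at equal GC content. These matches describe the letters in the windows and were not tested for binding.

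Before the members, the targeted gene was checked. Kmt2a was at 63.3 ± 10.6 CPM (counts scaled to a TMM-adjusted library size, SD, n = 4) in the libraries labelled Mll1-/- and 53.6 ± 7.43 CPM (n = 4) in those labelled Mll1+/-, a log2 fold change of 0.24 ± 0.17 (SE, edgeR adjusted p = 0.710). The count covers the whole gene and does not separate deleted from remaining exons, so it did not check the genotype, and directions below follow the labels. Depth was 14468751 to 16847793 counts on genes. Mitochondrial genes took 18.9%, 22.3%, 17.1% and 27.1% of these in Mll1-/- libraries J_7075, J_7096, J_7135 and J_7136. In Mll1+/- libraries J_7079, J_7100, J_7134 and J_7139 they took 24.9%, 28.7%, 30.1% and 23.3%. The TMM scaling factors were 1.003 to 1.126 in Mll1-/- and 0.864 to 0.995 in Mll1+/- libraries, without overlap. The libraries fell into 2 runs of consecutive library numbers, each with 2 mice of each genotype, here called run 1 (J_7075, J_7079, J_7096, J_7100) and run 2 (J_7134, J_7135, J_7136, J_7139). The 7 epithelial markers summed to 3621 to 4573 CPM in Mll1-/- and 2923 to 3206 CPM in Mll1+/- libraries, without overlap. Of 14 immune markers 12, among them Ptprc and Cd3e, were under the filter on low counts. The other 2 passed it, the macrophage genes Cd68 with 35 to 120 counts and Lyz2 with 12 to 74 counts per library. Genes under the filter also differed between genotypes. Gzma had 10 counts in all Mll1-/- and 208 in all Mll1+/- libraries, up to 153 in 1 library, and Ptprc had 5 and 31. Higher in Mll1-/- libraries were Itgam (117 and 7), Ms4a1 (30 and 20) and Csf1r (26 and 14). In such pooled RNA, fewer cells of a type and less RNA per cell cannot be told apart.

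Across the members, expression was higher in Mll1-/- cells for 7 of the 8 that passed the filter and lower for Klf5, but none passed the test at an adjusted p of 0.1 (edgeR's quasi-likelihood test with Benjamini-Hochberg adjustment over 16445 genes). At this threshold 0.0851% of all tested genes were called. At an unadjusted p of 0.05, 3 of the 8, Klf4, Klf7 and Klf10, passed, all higher in Mll1-/- cells, against 9.15% of all genes. The same 3 members had no overlap between the 4 libraries of either genotype, against 6.28% of all genes. DESeq2 without a prior called 2 members, Klf4 and Klf7, where it called 2.47% of all genes, while limma-voom called 0. The median log2 fold change of the 8 was 0.29, and that of all tested genes was 0.01. The members were chosen with earlier results of these data known, so setting them beside all genes is a description only. Klf15 was too low to be tested.

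**Figure D1:**
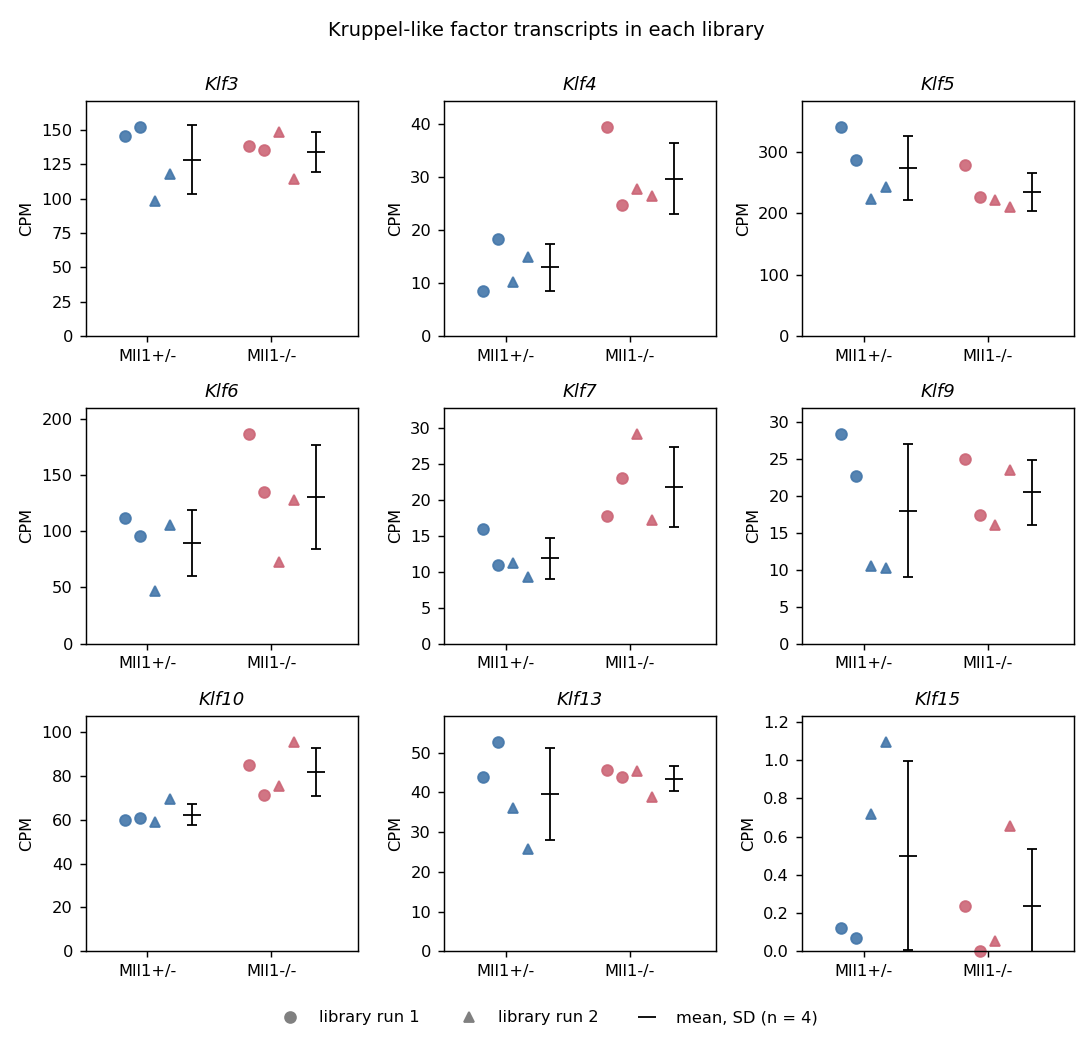
CPM (linear axis from 0) of each of the 9 members in the 4 Mll1+/- and the 4 Mll1-/- libraries, with circles for library run 1 and triangles for library run 2 and the mean and SD (n = 4) in black. For Klf4, Klf7 and Klf10 every Mll1-/- point lies above every Mll1+/- point, while the points of the other members overlap.

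Klf4, the growth-restraining member, showed the largest difference. In the Mll1-/- libraries J_7075, J_7096, J_7135 and J_7136 it stood at 39.4, 24.7, 27.8 and 26.5 CPM, and in the Mll1+/- libraries J_7079, J_7100, J_7134 and J_7139 at 8.47, 18.2, 10.2 and 14.9 CPM. The genotypes did not overlap, and the lowest Mll1-/- library was above the highest control. The values rested on 404 to 670 counts per Mll1-/- library and 128 to 260 per control library. The means were 29.6 ± 6.68 and 12.95 ± 4.43 CPM (SD, n = 4 each), and the log2 fold change was 1.19 ± 0.28 (SE), 2.28-fold on the linear scale. The edgeR p was 0.00206 before and 0.243 after adjustment, and the exact two-sided permutation p over the 8 libraries was 0.0286, the smallest that 4 against 4 allows. Within run 1 the difference was 1.32, and within run 2 it was 1.13 (log2 of CPM, 2 against 2). Over all alternatives the estimate stayed between 0.96 and 1.40, and DESeq2 gave an adjusted p of 0.00593.

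Klf5, the counterpart of Klf4 in dividing crypt cells, was the most abundant member. It was at 279.6, 226.9, 221.2 and 210.7 CPM in Mll1-/- libraries J_7075, J_7096, J_7135 and J_7136, and at 341.5, 287.7, 223.8 and 243.7 CPM in Mll1+/- libraries J_7079, J_7100, J_7134 and J_7139. The genotypes overlapped, since J_7075 lay above both controls of run 2. The log2 fold change was -0.22 ± 0.15 (SE, edgeR adjusted p = 0.710), with -0.32 within run 1 and -0.11 within run 2, so the lower mean did not exceed the spread between mice. The estimate was -0.33 without J_7075 and -0.10 without J_7079. With total-count scaling, which shifted the median of all genes by 0.18, it was -0.044. The ratio of Klf5 to Klf4 expression per kb of exon was 4.16, 5.40, 4.67 and 4.67 in the Mll1-/- libraries and 23.6, 9.25, 12.8 and 9.61 in the controls, in the order above. The ratio did not overlap between genotypes and is given as a description. Most of its difference came from Klf4, whose log2 difference was larger in size than that of Klf5.

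Klf7, a factor known from neuronal development, was higher in Mll1-/- cells as Klf4 was, by a smaller log2 fold change. It was at 17.8, 23.1, 29.2 and 17.2 CPM in Mll1-/- libraries J_7075, J_7096, J_7135 and J_7136, and at 16.0, 11.005, 11.2 and 9.33 CPM in the Mll1+/- libraries J_7079, J_7100, J_7134 and J_7139. The genotypes did not overlap, though the highest control, J_7079, stood close to the lowest Mll1-/- library, J_7136. The log2 fold change was 0.88 ± 0.26 (SE, edgeR p = 0.00731, adjusted p = 0.369), and the exact permutation p was 0.0286. Run 1 alone gave 0.61 and run 2 alone 1.12. DESeq2 called it with an adjusted p of 0.0715. Of the exonic bases of Klf7, 39.4% overlap exons of the noncoding genes Gm13748 and Gm26649 on the opposite strand, where reads could not be assigned to Klf7 alone, so the values describe the rest of the gene.

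Klf10, the TGF-β-inducible early gene, was at 85.2, 71.4, 75.4 and 95.5 CPM in Mll1-/- libraries J_7075, J_7096, J_7135 and J_7136. In Mll1+/- libraries J_7079, J_7100, J_7134 and J_7139 it was at 59.8, 60.9, 59.3 and 69.3 CPM. The genotypes did not overlap, with J_7139 the control nearest to the Mll1-/- libraries. The log2 fold change was small but even, 0.39 ± 0.14 (SE, edgeR p = 0.0172, adjusted p = 0.460), with 0.37 within run 1 and 0.40 within run 2, and the exact permutation p was 0.0286. With the level of the immediate-early genes (see their counts further on) as a covariate, the estimate was 0.16 and the unadjusted edgeR p 0.317.

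Klf6, another rapidly induced member, ranged widely. It was at 185.9, 134.9, 72.5 and 127.5 CPM in Mll1-/- libraries J_7075, J_7096, J_7135 and J_7136, and at 111.3, 95.7, 46.8 and 105.0 CPM in the controls J_7079, J_7100, J_7134 and J_7139. The genotypes overlapped because J_7135 lay below 3 controls. The log2 fold change of 0.54 ± 0.32 (SE) did not pass the edgeR test (adjusted p = 0.656). Run 1 alone gave 0.62 and run 2 alone 0.46. The estimate was 0.31 without J_7075 and 0.74 without J_7135.

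Klf3, Klf9 and Klf13 are members that recruit corepressors, Klf3 through CtBP proteins and Klf9 and Klf13 through Sin3A. For none of them did a genotype difference exceed the spread. Klf3 was at 134.0 ± 14.5 CPM in Mll1-/- cells and 128.5 ± 25.0 CPM in Mll1+/- cells (SD, n = 4 each), with a log2 fold change of 0.06 ± 0.16 (SE, edgeR adjusted p = 0.942). Klf13 was at 43.4 ± 3.11 and 39.6 ± 11.5 CPM, with a log2 fold change of 0.13 ± 0.22 (SE, edgeR adjusted p = 0.893). Klf9 was at 20.5 ± 4.41 and 18.0 ± 9.01 CPM, with a log2 fold change of 0.19 ± 0.36 (SE, edgeR adjusted p = 0.913). All 3 were on opposite sides in the runs, lower in Mll1-/- cells of run 1 (-0.12 for Klf3, -0.11 for Klf13, -0.28 for Klf9) and higher in those of run 2 (0.27, 0.46 and 0.89, on the log2 scale). For Klf9 this came with a split among controls, which stood at 28.3 and 22.7 CPM in run 1 and at 10.6 and 10.3 CPM in run 2.

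Klf15, a regulator of amino acid and glucose metabolism, was near the limit of detection. It had 4, 0, 1 and 10 counts in Mll1-/- libraries J_7075, J_7096, J_7135 and J_7136 and 2, 1, 9 and 17 counts in Mll1+/- libraries J_7079, J_7100, J_7134 and J_7139. The floor of 3 counts corresponds to 0.162 to 0.240 CPM per library, covering counting error only, and 4 of the 8 libraries lay under it. The 3 highest libraries were all in run 2.

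**Figure D2:**
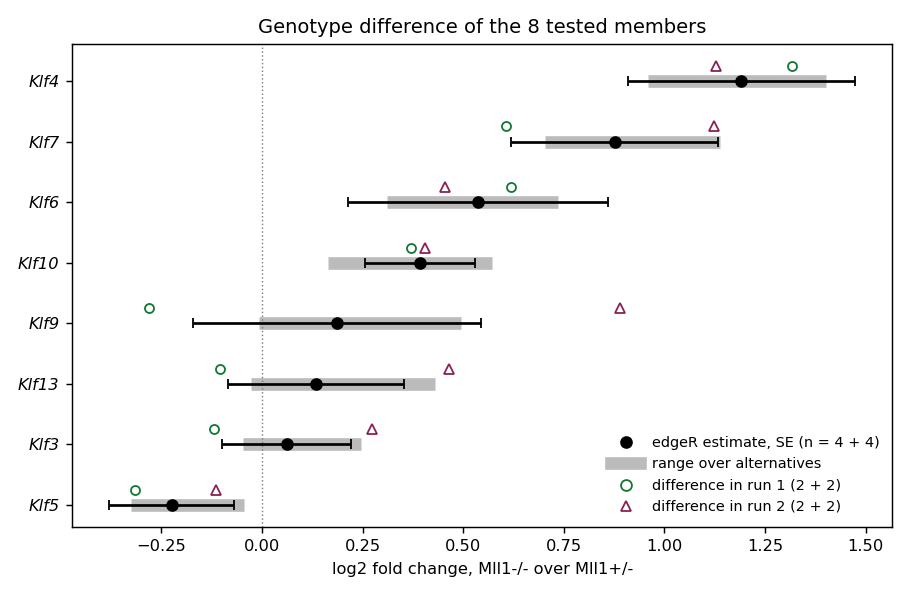
Log2 fold change of Mll1-/- over Mll1+/- for the 8 tested members (black point and bar, edgeR estimate and SE), with the range over all alternatives as a grey band and the difference within each library run as open symbols. Klf4, at 1.19, and Klf7, at 0.88, lie farthest from 0, and for Klf3, Klf9 and Klf13 the runs fall on opposite sides of 0.

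To compare members with each other, CPM was divided by the whole exonic length of the gene. In Mll1+/- cells the mean level was 52.7 CPM per kb for Klf5, 20.4 for Klf6, 14.9 for Klf10, 11.4 for Klf3, 5.51 for Klf9, 5.25 for Klf13, 4.25 for Klf4, 1.46 for Klf7 and 0.179 for Klf15. Klf5 ranked first and Klf15 ninth in all 8 libraries, whereas Klf9, Klf13 and Klf4 overlapped and did not differ beyond their spread. The value of Klf7 is too low on this scale, because reads in the overlapped exons were left out of its count. Over the 60.6% of its exonic bases without overlap, a length chosen after the data were seen, Klf7 was at 2.41 ± 0.58 CPM per kb in Mll1+/- and 4.42 ± 1.13 in Mll1-/- cells (SD, n = 4 each). It then ranked between 7 and 8, above Klf4 in J_7079 and above Klf9 in J_7135. In Mll1-/- cells the mean of Klf4 was 9.70 CPM per kb, above Klf9 at 6.27 and Klf13 at 5.76, and below Klf3 at 11.9. Klf4 ranked between 5 and 8 among the members in control libraries with overlaps left out, between 5 and 7 with whole lengths, and on either scale between 4 and 5 in Mll1-/- libraries. With whole lengths, the summed level of the 9 members was 130.8 ± 18.8 CPM per kb in Mll1-/- and 116.1 ± 20.8 in Mll1+/- cells (SD, n = 4 each), and the groups overlapped. Within this sum, Klf5 took 34.6% ± 2.13 in Mll1-/- and 45.4% ± 2.89 in Mll1+/- cells, while Klf4 took 7.38% ± 0.85 and 3.72% ± 1.21, with no overlap for either. With overlapped bases left out, the means were 34.0% and 44.9% for Klf5 and 7.26% and 3.68% for Klf4, again without overlap. As shares of 1 sum they are not independent of each other.

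**Figure D3:**
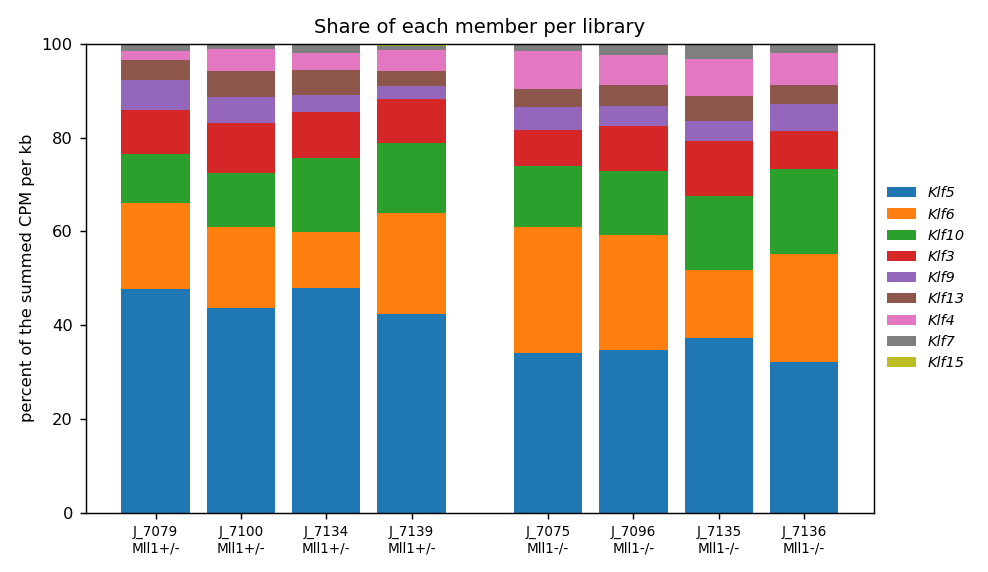
Percent of the summed CPM per kb (whole exonic length) of the 9 members that each member takes, 1 bar per library, with the 4 Mll1+/- libraries on the left and the 4 Mll1-/- libraries on the right. Klf5 takes 42.3% to 48.0% in Mll1+/- and 32.2% to 37.3% in Mll1-/- libraries, and the share of Klf4 is larger in each Mll1-/- library than in any Mll1+/- library.

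Of the other 8 Klf genes, 4 passed the filter, and all 4 were higher in Mll1-/- cells without passing the edgeR test. Klf12, a repressor of AP-2α, had 30, 70, 150 and 12 counts in Mll1-/- libraries J_7075, J_7096, J_7135 and J_7136 and 2, 5, 2 and 8 counts in the controls J_7079, J_7100, J_7134 and J_7139. Its genotypes did not overlap, but counts were low and J_7135 alone held most of the reads. The fitted log2 fold change was 3.64 ± 0.83 (SE, edgeR adjusted p = 0.220). Klf11, a close relative of Klf10, was at 16.5 ± 2.10 against 11.8 ± 1.46 CPM, also with no overlap (log2 fold change 0.48 ± 0.20, edgeR adjusted p = 0.526). Klf1, Klf8, Klf14 and Klf17 were under the filter. Of the 9 Sp genes, which bind the same GC boxes, 5 passed the filter and 0 reached an unadjusted edgeR p of 0.05, with a median log2 fold change of 0.02, Sp3 at -0.47 and Sp2 at 0.46. Sp6, Sp7, Sp8 and Sp9 were under the filter, with Sp6 at 0 in all libraries.

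Among 14 cofactors and ubiquitin ligases of Klfs, 7 were higher and 7 lower in Mll1-/- cells, with a median log2 fold change of 0.01. No gene of this list passed the adjusted test, and 2 reached an unadjusted edgeR p of 0.05, against 9.15% of all genes. Called by DESeq2 but not by edgeR, Fbxw7, the substrate receptor of a ubiquitin ligase that targets Klf5, was at 19.8 ± 3.91 against 11.9 ± 0.99 CPM with no overlap (log2 fold change 0.73 ± 0.21, edgeR adjusted p = 0.352). Wwp1, another Klf5 ligase, was at 81.9 ± 11.7 against 102.3 ± 8.62 CPM (log2 fold change -0.32 ± 0.14, edgeR adjusted p = 0.538). The corepressor genes Sin3a, Ctbp1 and Ctbp2 had log2 fold changes of -0.24, 0.14 and 0.17.

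Of 6 genes known to be activated by Klf4, 4 were tested, with log2 fold changes of 1.05 for Cdkn1a, 0.28 for Krt19, 0.03 for Cdh1 and -0.94 for Cdkn1c. Their median was 0.15, but it was -0.45 over all 6 genes without the filter, -0.05 without J_7075 and -0.0077 without J_7096, both over 5 genes. The gut alkaline phosphatase gene Alpi and the keratin gene Krt4 were under the filter. The keratin gene Krt19 had a log2 fold change of 0.28 ± 0.20 (SE, edgeR adjusted p = 0.722). Cdkn1a, the cell cycle inhibitor p21, was at 19.1, 16.8, 16.1 and 34.0 CPM in Mll1-/- libraries J_7075, J_7096, J_7135 and J_7136 and at 13.7, 6.94, 7.92 and 12.9 CPM in the controls J_7079, J_7100, J_7134 and J_7139. It had no overlap, with J_7136 far above the rest, and a log2 fold change of 1.05 ± 0.33 (SE, edgeR adjusted p = 0.417). Of 10 genes known to be activated by Klf5 or repressed by Klf4, mostly of the cell cycle, 7 were higher and 3 lower, with a median of 0.27 and 0 called. Cyclin D1 (Ccnd1) was at 48.4 ± 4.65 in Mll1-/- and 31.5 ± 6.13 CPM in Mll1+/- cells (log2 fold change 0.62 ± 0.18, edgeR adjusted p = 0.365), and cyclin E1 (Ccne1) had a log2 fold change of 1.00 ± 0.35. Fgfbp1, a carrier of fibroblast growth factors, had the lowest p of the list, with 0.54 ± 0.14 (SE, edgeR adjusted p = 0.296).

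Lists of pathways and cell types that the members are tied to were set beside them. Of all tested genes, 9.15% reached an unadjusted edgeR p of 0.05. Of 32 tested immediate-early and dissociation-response genes, 10 reached an unadjusted edgeR p of 0.05, all higher in Mll1-/- cells, among them Atf3 with a log2 fold change of 0.89, Dusp1 with 0.68 and Ppp1r15a with 1.33, and 0 passed the adjusted test. In all, 22 were higher and 10 lower. The heat shock genes Hspa8, at -0.79, and Hsph1, at -0.55, were among the lower ones, and Hspa8 was the 1 gene of this list that limma-voom called. Their summed level was 2231 to 3165 CPM in Mll1-/- and 2227 to 2622 CPM in Mll1+/- libraries. With this list's level as a covariate, the log2 estimate of Klf4 was 1.16, close to that without it, and that of Klf7 was 1.14, above it. That of Klf10 was smaller, as given above, and 0 of the 8 members passed the adjusted test in this fit. The covariate, the list's mean log2 CPM, was 4.93 to 5.48 in Mll1-/- and 4.79 to 5.08 in Mll1+/- libraries. Because it shifted with genotype, the fit cannot separate the list's level from genotype for any member. In the glucocorticoid and clock list 1 of 18 genes, Per2, reached an unadjusted p of 0.05 (log2 fold change 0.88), with Fkbp5 at -0.69, and in the TGF-β list 3 of 10 did, the inhibitor Smad7 with 0.83, Pmepa1 with 0.85 and the receptor gene Tgfbr1 with -0.71.

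Marker lists of cell types also had medians away from 0, and their values are given for comparison with those of Klf4. The 20 tested goblet markers had a median log2 fold change of 0.86, and 10 reached an unadjusted edgeR p of 0.05, 9 of them higher, such as Muc2 with 1.94, Spdef with 2.41 and Guca2a with 1.89, while Zg16 was at -4.03. Their summed level was 817 to 1459 CPM in Mll1-/- and 730 to 962 CPM in Mll1+/- libraries. The 14 tested absorptive markers had a median of -0.87, with 12 lower, such as Apoa1 at -1.16 and Fabp2 at -0.93. The other 2 were higher, Vil1 at 0.42 without overlap and Dpp4 at 0.20. The 18 stem cell markers were mixed, with a median of -0.03. Olfm4 (12123 against 20678 CPM, -0.77) and Slc12a2 (1414 against 2588 CPM, -0.87) were lower in Mll1-/- cells, Nkd1 (1.31), Ephb3 (0.87) and Axin2 (0.44) were higher, all without overlap, and Lgr5 and Smoc2 had log2 fold changes of -0.06 and 0.03. Their summed level, 11665 to 18482 CPM against 23941 to 28495 CPM, is mostly that of Olfm4. The 11 Paneth markers had a median of -1.12, with Defa17 at -1.72, but Mmp7, the gene with the lowest p of the list, was at 1.04 (302.8 ± 89.4 against 147.4 ± 11.6 CPM, no overlap). The 7 enteroendocrine markers had a median of -1.51, with Chgb at -4.98 and Chga at -5.70 from few counts in Mll1-/- libraries. Of 11 tuft markers 2 were tested, Avil at 0.82 from 2 to 52 counts and Pou2f3 at 0.36 from 0 to 57 counts per library. Under the filter, Trpm5 had 112 counts in all Mll1-/- and 10 in all Mll1+/- libraries, and Dclk1 20 and 31. The tested immune markers Cd68 and Lyz2 were at -0.75 and -0.90. The 7 epithelial markers had a median of 0.47, with Krt8 at 0.57 and Krt18 at 0.72. Of 13 mesenchymal and endothelial markers only Pecam1 was tested, at -0.02. In every list 0 genes passed the adjusted edgeR threshold. DESeq2 without a prior called 7 goblet, 4 absorptive, 4 stem cell, 5 Paneth and 4 immediate-early genes, and limma-voom called 1, 2, 4, 1 and 1. Of all tested genes DESeq2 called 2.47%, and 9.15% reached an unadjusted edgeR p of 0.05. Mmp7 was the Paneth gene that limma-voom called and 1 of the 5 that DESeq2 called. Of the family, cofactor and target lists DESeq2 called Klf12, Fbxw7, Cdkn1a, Fgfbp1 and Ccnd1, and limma-voom called 0. Between lists, genes and members share the same libraries, and the part of cell composition in the values of Klf4 and the other members was not tested.

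**Figure D4:**
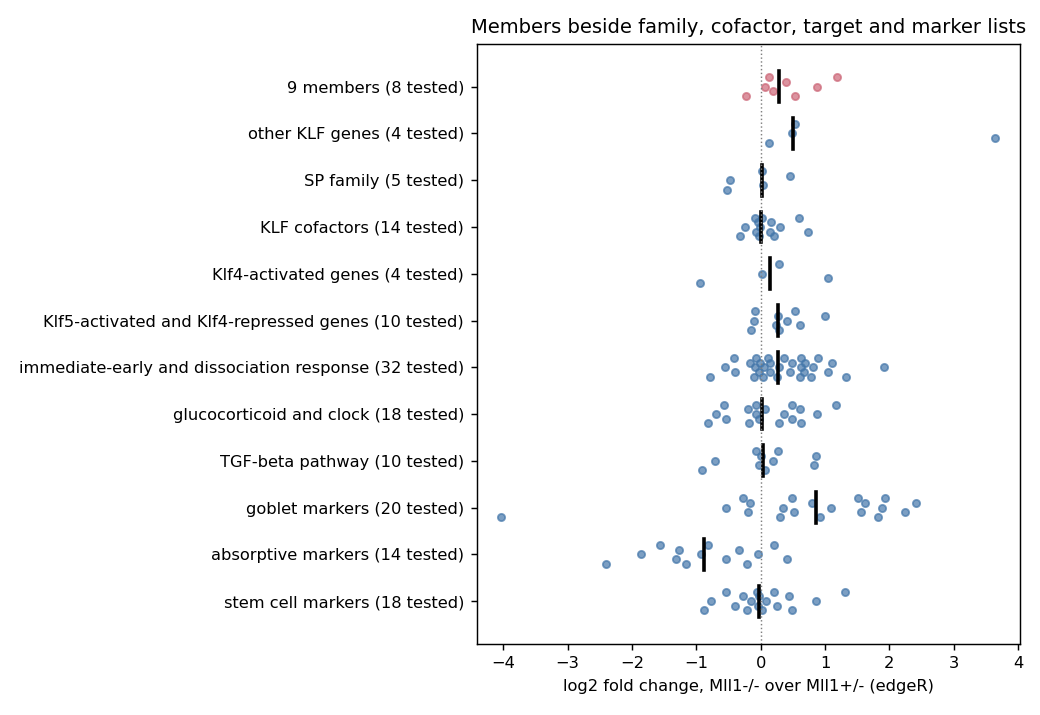
Log2 fold change of Mll1-/- over Mll1+/- (edgeR) for the tested members (red) and for genes of 11 other lists (blue), 1 point per gene, with a black bar at each list's median. The members have a median of 0.29, goblet markers lie mostly to the right with a median of 0.86, and absorptive markers mostly to the left with a median of -0.87.

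The genes whose log2 CPM was most alike to a member over the 8 libraries were sought among 8023 genes with a mean of at least 10 CPM, as a description only, since all points share the same libraries and genotypes. For Klf4 these were the centrosome gene Cep135 (Pearson's r = 0.95, n = 8), the translation initiation gene Eif1 (0.95) and the Hedgehog co-receptor gene Boc (0.95). Klf10 was most alike to Zcchc11, the immediate-early phosphatase gene Dusp1 and Pdgfrl, with r of 0.95, 0.95 and 0.94. The 3 for Klf5 were Aplp2 (0.97), Vezf1 (0.95) and Rnf19a (0.93), and for Klf7 they were Rnaseh2c (0.97), Nol4l (0.96) and Vasp (0.95). Klf6 had Emsy (0.97), Ssh2 (0.94) and Ppp4r1l-ps (0.94), and Klf3 had Uba1 (0.97), Brip1os (0.96) and Fam110c (0.94). For Klf9 they were Rph3al (0.96), Parg (0.95) and Ubr2 (0.95), and for Klf13 Arf6 (0.96), Mbd4 (0.94) and Vsig10 (0.93).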

How the data were processed

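RNA of sorted cells was amplified by Smart-seq2 and sequenced without molecular identifiers, so the floor of 3 counts covers counting error only. SD and SE include the spread between mice. The authors aligned reads with GSNAP and deposited counts per gene (featureCounts 1.6.3, Ensembl annotation, GRCm38) with gene length, and a signal table of counts divided by 1 size factor per library, recovered as 0.811 to 1.17. Counts were tested in edgeR 4.0.16 (R 4.3.3) with TMM, filterByExpr (at least 10 counts) and genotype as the only term; SE is the log2 fold change over the square root of F. CPM for Pearson's r had a prior count of 2. DESeq2 1.42.0 and limma-voom (limma 3.58.1), other scalings, filters, covariates, a run block and leaving out libraries were alternatives. The fits were tried on simulated data, where DESeq2 made more false calls than its adjusted p threshold allows and edgeR missed many changed genes. Calls made by DESeq2 alone, among them Klf4 and Klf7, are therefore to be read with caution. The simulated counts were drawn with dispersions estimated by edgeR, so the error rates in these data may differ. Replicates are mice with different numbers, and sex was not labelled. Members and lists were chosen with earlier results of these data known. The text names the members, Kmt2a, the 2 tested genes with the smallest p per list, family and cofactor genes under the filter, and for each member the 3 most alike genes (unnamed gene models left out). Others were named after their values were seen. Between 15983 and 17266 genes had at least 10 counts. Promoters were available for 7 members.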

Additional observations from a re-analysis of the deposited data

Results flagged for a closer look

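Dixon's criterion for groups of 4 was applied to 86 sets of 4 libraries, and 10 held a library far from the other 3; chance flags about 1 in 20. Among the members, only Klf10 was involved, with J_7139 at 69.3 CPM against 59.3 to 60.9 CPM in the other Mll1+/- libraries. In the Mll1-/- group, Cdkn1a was at 34.0 CPM in J_7136 against 16.1 to 19.1 CPM, and Per2 at 23.4 CPM in the same library against 14.9 to 15.8 CPM. Muc2 was at 81.6 CPM in J_7135 against 25.4 to 31.7 CPM. Chga was at 0.162 CPM there against 0 in the other 3, which is 3 counts and no more than the floor. In the Mll1+/- group, J_7100 had the enteroendocrine genes Chga at 7.99 CPM against 0.775 to 0.880 CPM and Chgb at 29.7 CPM against 4.88 to 7.46 CPM. Kmt2a was at 64.7 CPM in J_7100 against 48.8 to 51.0 CPM. J_7079 had Fkbp5 at 23.6 CPM against 15.1 to 16.1 CPM and Krt19 at 249.9 CPM against 218.1 to 221.3 CPM.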

How the results depend on the processing

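Of 160 alternative values of the 8 tested members, 153 kept direction and side of the threshold. Klf4 was called by DESeq2 without a prior (1.20) and with one (0.96), as was Klf7 (0.88 and 0.72), which made 2 members called under both DESeq2 fits and 0 under every other alternative. The sign turned to -0.048 for Klf3 without J_7134, and without J_7139 to -0.0082 for Klf9 and -0.028 for Klf13. Leaving out 1 library gave -0.048 to 0.15 for Klf3, -0.0082 to 0.49 for Klf9, -0.028 to 0.30 for Klf13, 0.31 to 0.74 for Klf6 and -0.33 to -0.10 for Klf5. The 14 genes called in all (8 higher) became 8 (3 higher) with upper-quartile factors, 406 and 390 with DESeq2 without and with a prior, 103 with limma-voom, 47 without a filter and 34 with at least 10 counts in every library. Total-count scaling called 14, 13 of them higher, and shifted the median of all genes by 0.18. No gene was called by edgeR with a block of the library runs (1642 at an unadjusted p of 0.05), a covariate for Xist over Y-linked genes (1608) or one for the immediate-early list (799). Leaving out 1 library gave 0 to 45 calls, 45 without J_7135, 2 without J_7075 and 0 without any other (1189 to 1847 at an unadjusted p of 0.05); the cause was not tested. Depth limits only Klf15 among the members. No paired analysis was possible because the genotypes share no replicate number.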
